A study of Mus musculus with 36 samples.

Results

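The nuclear genes that encode the respiratory chain were followed in mouse embryonic stem cells treated with DMSO, BPK25 or auxin (IAA) and collected at days 0, 2, 4 and 6. Members were the protein-coding genes whose symbols begin with Ndufa, Ndufb, Ndufc, Ndufs or Ndufv and a number, Sdha to Sdhd, Uqcr, Cox4 to Cox8 or Atp5, without the Ndufaf genes. The rule found 90 of the 55335 genes counted: 36 for complex I, 4 for complex II, 8 for complex III, 20 for complex IV and 18 for complex V, and, because their symbols also begin with Sdha, the 4 complex II assembly genes Sdhaf1 to Sdhaf4. Ndufa4 and Ndufa4l2 were placed with complex IV, where Ndufa4 is known to reside. Of the 90, 89 passed the filter on low counts, and Cox8b did not. Atp5o appeared as 2 gene models that shared most of their reads (65080 and 57672 counts, Pearson's r = 0.993 over the libraries). Only the first entered the summed levels, and both count among the 89.

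The series held 3 libraries of polyadenylated RNA for each of the 12 combinations of treatment and day, 36 in all. All groups were grown in medium with serum replacement and leukaemia inhibitory factor, typically on gelatin with irradiated mouse embryonic fibroblasts as feeders. DMSO is the solvent control, and IAA is the plant hormone used to degrade proteins that carry an auxin-inducible degron. BPK25 is known here only by its code name. The labels give neither the tagged protein, the doses, the strain or clone, nor the event from which days are counted, and nothing says that replicates came from separate cultures, so the p-values below speak only for the spread among libraries of a group, part or all of which could be technical. In bulk RNA, fewer cells of a type and less RNA per cell cannot be told apart.

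Electrons from NADH enter the inner mitochondrial membrane through complex I and those from succinate through complex II. They pass to complex III and then to complex IV, which reduces oxygen, and complex V uses the proton gradient to make ATP. Most subunits are nuclear-encoded, but the catalytic core also needs subunits made from mitochondrial DNA, so the chain is built from both genomes. Pluripotent stem cells are known to draw much of their ATP from glycolysis, and several complex IV subunits have tissue-specific isoforms.

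Libraries held 6621288 to 16497799 counts. Levels are CPM, a gene's count scaled to a fixed library size after TMM scaling, which corrects each library's total for composition, and a gene was called changed at an adjusted p of 0.05 in edgeR's quasi-likelihood test, with Benjamini-Hochberg adjustment over all 17394 genes tested. Markers of embryonic stem cells fell with time in the controls. In DMSO 9 of 10 had fallen by day 6 against day 0, where 29.5% of all genes were lower. The summed level of the markers went from 2910 ± 52.3 to 766 ± 7.83 CPM (SD, n = 3). At day 0 in IAA 8 of these 10 were higher, where 21.3% of all genes were higher. At day 2 of IAA 9 of 10 were lower, where 27.9% of all genes were lower. At day 4, 7 were lower and 2 higher in IAA (25.9% of all genes in each direction). In BPK25 at day 4, 4 were lower and 2 higher (26.8% and 26.2% of all genes). Summed at day 4, they were at 1231 ± 53.3 CPM in DMSO, 895 ± 5.26 in IAA and 1086 ± 16.2 in BPK25. Summed fibroblast markers ranged over 45.7 to 48.9 CPM in DMSO day 0 and 316 to 324 CPM in IAA day 6, the highest group. Of the 11 tested, 8 were higher and 0 lower in DMSO day 6 against day 0 (33.2% and 29.5% of all genes). In IAA day 6 against DMSO day 6, 6 were higher and 3 lower (30.6% and 30% of all genes). The part of these shifts in the results below was not tested.

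In control cells at day 0, levels per kilobase of transcript spanned the subunits widely. Atp5b, the catalytic beta subunit of ATP synthase, was highest at 911 CPM per kb, followed by Cox4i1 at 780, Uqcrb at 633, Cox7c at 531 and Atp5md at 436. Several isoforms known from muscle, testis or hypoxic tissue were at the low end on the same scale: 3.38 for Cox7b2, 2.25 for Cox8c, 0.674 for Ndufa4l2, 0.524 for Cox4i2 and 0.394 for Cox6a2. Cox6b2 at 35.1 CPM per kb and Cox7a1 at 19.9 lay above some common subunits on this scale, such as Sdhc at 12.6 and Ndufb2 at 8.89. That order rests on the median annotated transcripts, of 435 and 439 bases against 1993 and 2413. In CPM without this division Sdhc and Ndufb2 lay above both. Cox8b had 1 count in the 3 DMSO day 0 libraries together. Of 10 heart and skeletal muscle markers 5 were tested, and Myod1, Myog and Ckm were among those too low to be tested. The 10 together were at 35.4 ± 4.03 CPM in DMSO day 0 (SD, n = 3).

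The main shift against DMSO was a decrease at day 4 in both treatments. In BPK25 at day 4, 60 of 89 members were lower and 6 higher, where 53% of all genes were called (26.8% lower, 26.2% higher). In IAA at day 4, 66 were lower and 4 higher, where 51.9% were called (25.9% in each direction). The median member was at -0.28 log2 units in BPK25 and -0.27 in IAA, while the median of all genes was -0.007 and -0.004. BPK25 and IAA are set against the same 3 DMSO libraries at each day, and 53 members were lower in both at day 4. The share of all genes lower in both was not counted. A shift by transcript length ran in the same direction: members have a median transcript of 731 bases, and the 2761 tested genes under 1000 bases had medians of -0.06 in BPK25 and -0.15 in IAA. Once the trend of counts with length was removed, some named members lost their lower calls at day 4. In IAA these were Ndufa4, Ndufa11, Ndufb7, Ndufs3, Ndufs6, Uqcr10, Uqcr11, Cox5a, Cox7a2l, Atp5g2 and Atp5g3, and in BPK25 Ndufs3 and Uqcr10.

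Outside day 4 the treatments differed in extent. In IAA at day 0, 26 members were lower and 12 higher, where 44.5% of all genes were called (23.2% lower, 21.3% higher). At day 2, 45 were lower and 10 higher, where 55.4% were called (27.9% lower, 27.5% higher). At day 6, 42 were lower and 9 higher, where 60.6% were called (30% lower, 30.6% higher). The medians were -0.08, -0.14 and -0.16 log2 units. The IAA effect on a member differed between days for 72 of 89 members in a joint test of treatment by day, against 70.1% of all genes. The BPK25 effect differed between days for 68 of 89, against 47.1% of all genes.

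BPK25 at the other days called fewer members than at day 4, at 15.7%, 20.2% and 20.2% of the 89 at days 0, 2 and 6. At day 0, 8 members were higher and 6 lower (7.9% of all genes called, 3.32% higher and 4.58% lower). At day 2, 9 were higher and 9 lower (13.5% called, 6.4% higher and 7.12% lower), and at day 6, 5 were higher and 13 lower (7.09% called, 4.01% higher and 3.08% lower). The medians were 0.02, 0.01 and -0.02 log2 units. With the length trend removed, 3 members were higher at day 0 and 16 lower at day 2. These small counts moved with single libraries. The day 0 count of higher members was 2 without BPK25 replicate 1 or DMSO replicate 3 and 5 without BPK25 replicate 2, BPK25 replicate 3 or DMSO replicate 1, and the count of lower members was 3 without BPK25 replicate 2. At day 2 the count of lower members was 5 without DMSO replicate 1. At day 6 the count of higher members was 1 without BPK25 replicate 1 or DMSO replicate 1, 2 without BPK25 replicate 2 and 3 without DMSO replicate 2 or 3, and the count of lower members was 8 without BPK25 replicate 1, DMSO replicate 1 or DMSO replicate 3. Of the 60 members lower at day 4, 34 were called in neither direction at the other 3 days, a pattern not counted over all genes.

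**Figure D1:**
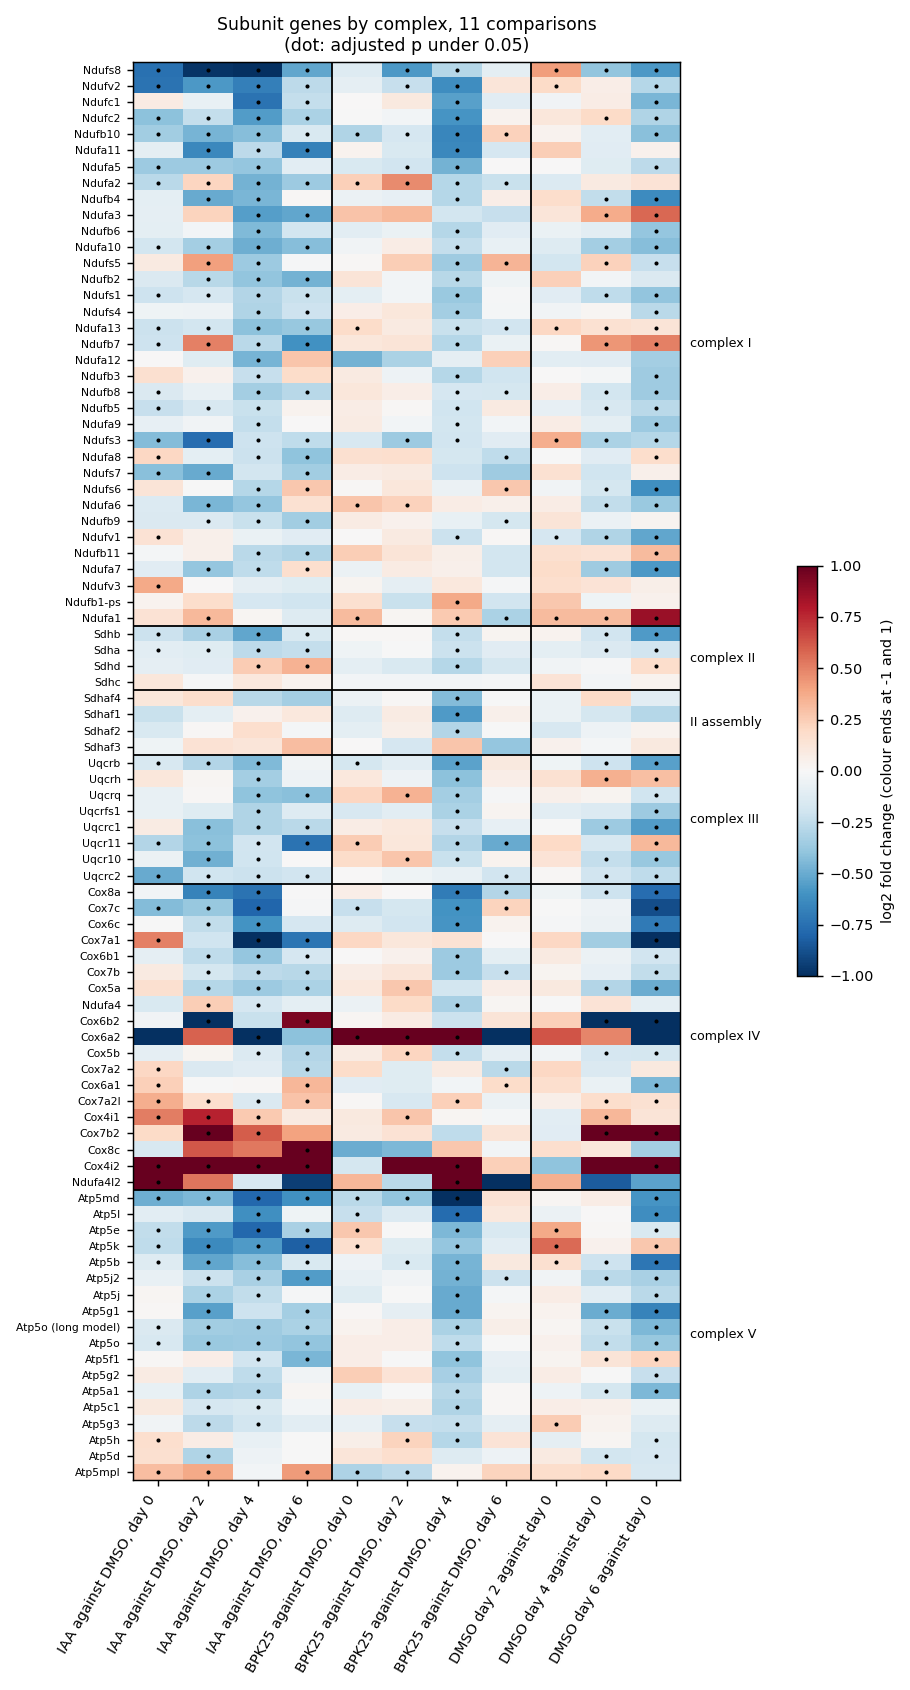
Log2 fold changes of the tested members but 1 (rows, grouped by complex) in the 11 comparisons (columns), on a colour scale from lower (blue) to higher (red) that ends at -1 and 1; a dot marks an adjusted p under 0.05 in edgeR's test. The day 4 columns of BPK25 and IAA and the day 6 column of DMSO against day 0 are mostly blue, with 60, 66 and 53 members called lower.

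**Figure D2:**
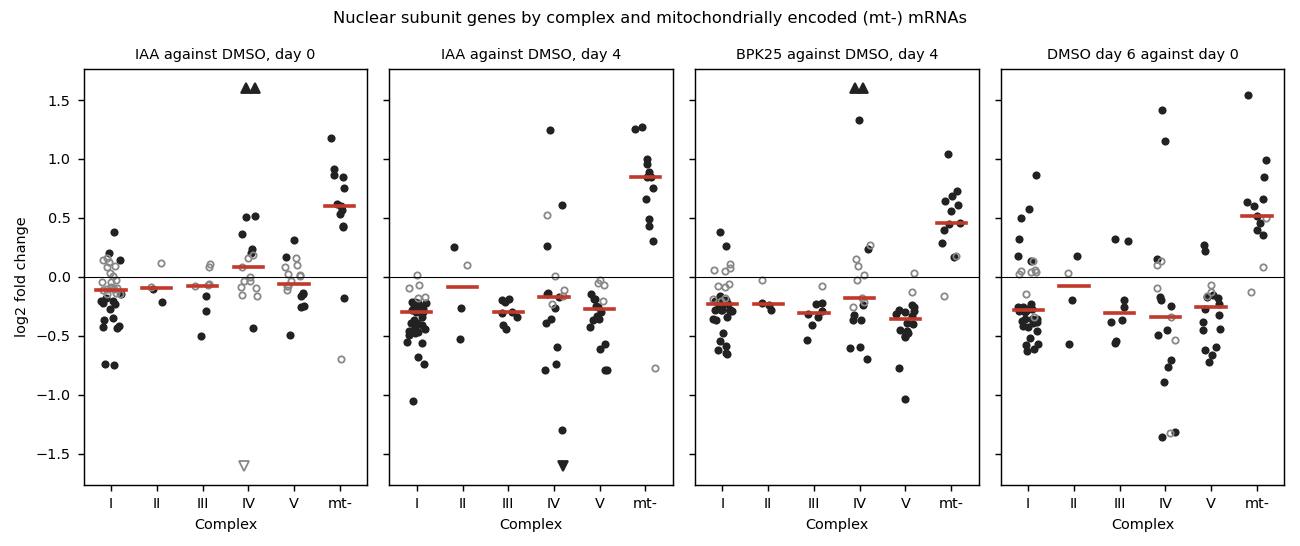
Log2 fold change (vertical axis) of the tested subunit genes by complex, and of the mitochondrially encoded genes (mt-), in IAA at days 0 and 4, BPK25 at day 4 and DMSO day 6 against day 0; filled points passed the adjusted p of 0.05, open points did not, red bars are medians and triangles are values beyond the axis. Complex V in BPK25 at day 4 has its median at -0.36, and complex IV in IAA at day 0 has its median at 0.09.

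By complex, the day 4 counts were as follows. In BPK25, complex I had 24 lower and 2 higher of 36 with a median of -0.23 log2 units, complex II 3 lower of 4, complex III 7 lower of 8 with a median of -0.30, complex IV 7 lower and 4 higher of 19 with a median of -0.18, and complex V 16 lower of 18 with a median of -0.36. In IAA, complex I had 31 lower of 36 with a median of -0.30, complex II 2 lower and 1 higher, complex III all 8 lower with a median of -0.30, complex IV 11 lower and 3 higher of 19 with a median of -0.17, and complex V 14 lower of 18 with a median of -0.27. No complex was tested against another.

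The subunits of each complex were also summed at day 4. Complex I subunits together were at 2589 ± 21.8 CPM in DMSO day 4, 2123 ± 11.2 in BPK25 and 1996 ± 20.3 in IAA (SD, n = 3). Complex V subunits were at 4080 ± 79.5, 3099 ± 28.2 and 3235 ± 84.3 CPM. Complex III subunits were at 938 ± 12.5, 737 ± 27.9 and 743 ± 0.778 CPM, and complex II subunits at 497 ± 4.65, 426 ± 12.5 and 417 ± 11.4 CPM. The treated libraries did not overlap the DMSO libraries in any of these 4 sums. Complex IV subunits were at 2115 ± 75.8, 1862 ± 58.3 and 1973 ± 35.98 CPM, and its 3 IAA libraries lay between 1932 and 2000 CPM against 2030 to 2177 in DMSO. Once the length trend was removed the order of IAA and DMSO turned, at 2136.6 and 2082 CPM.

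**Figure D3:**
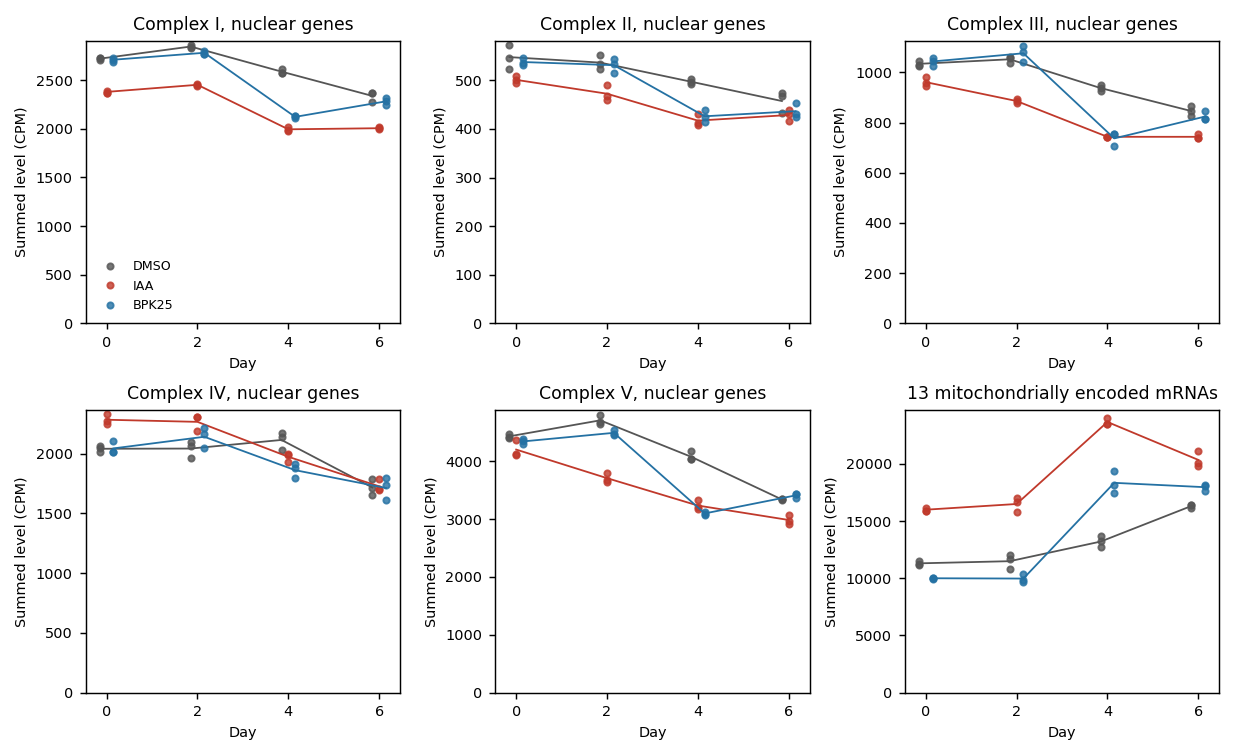
Summed CPM of the nuclear subunits of each complex and of the 13 mitochondrially encoded genes (vertical axes, linear) by day (horizontal axis) in DMSO, BPK25 and IAA; points are libraries and lines join the means of 3. Complexes I, III and V in BPK25 dip at day 4 to 2123, 737 and 3099 CPM and lie near DMSO at day 6, while complex IV in IAA lies above DMSO at day 0, at 2284 against 2041 CPM.

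Promoters are shown because members moved together and because NRF1, the ETS factor GABPA and YY1 are known regulators of respiratory genes. RefSeq windows (GRCm38.p6, the build that mm10 names) from 250 bases before to 50 after the start were matched for 73 members. The letters GCGCA followed directly by TGCGC (NRF1), CCGGAAGT (ETS) and AAGATGGC (YY1) were searched on both strands. The NRF1 letters were in 5 member windows (6.849%) against 1.073% of 27025 genes, the ETS letters in 5 (6.849%) against 4.307%, and the YY1 letters in 10 (13.699%) against 3.19%. Any of the 3 was in 20 windows (27.397%) against 8.218%. Parts of 8 windows follow, written 5′ to 3′ in the direction of the gene, with the match in capitals. The first 4 carry the NRF1 letters, Uqcr11, Uqcrh and Atp5h carry the ETS letters (the last pair on the opposite strand), and Atp5j carries the YY1 letters.
Ndufa11, chr17:56717677-56717736, plus strand: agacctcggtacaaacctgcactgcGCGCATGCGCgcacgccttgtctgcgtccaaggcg
Cox6a1, chr5:115349086-115349145, minus strand: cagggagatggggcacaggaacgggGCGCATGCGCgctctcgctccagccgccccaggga
Atp5g2, chr15:102671055-102671114, minus strand: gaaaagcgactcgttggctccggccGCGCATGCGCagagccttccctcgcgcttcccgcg
Atp5k, chr5:108434415-108434474, minus strand: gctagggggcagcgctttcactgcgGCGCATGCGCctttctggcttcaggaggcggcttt
Uqcr11, chr10:80406855-80406912, minus strand: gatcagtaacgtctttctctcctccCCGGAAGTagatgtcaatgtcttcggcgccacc
Uqcrh, chr4:116075071-116075106, minus strand: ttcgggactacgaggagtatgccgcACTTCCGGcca
Atp5h, chr11:115419926-115419983, minus strand: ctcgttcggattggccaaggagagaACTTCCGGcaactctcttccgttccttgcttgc
Atp5j, chr16:84835032-84835089, minus strand: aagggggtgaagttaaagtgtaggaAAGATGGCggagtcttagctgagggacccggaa

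Calls at day 4 were also counted by these letters. In BPK25, 16 of 20 members with a match were lower and none higher, and of the 52 tested members without one 36 were lower and 3 higher, with medians of -0.31 and -0.27 log2 units. In IAA, 17 of 20 with a match were lower, and of the 52 without one 38 were lower and 2 higher, with medians of -0.27 in both. Of the 4 genes shown with NRF1 letters, Atp5k, Ndufa11 and Atp5g2 fell in BPK25 at day 4, by 0.39, 0.65 and 0.33, and Cox6a1 was at -0.02. In IAA at day 4 Atp5k fell by 0.57 and Cox6a1 was at 0.01. Ndufa11 was at -0.26 there, a call lost at -0.30 to -0.20 without any 1 of the DMSO libraries or without IAA replicate 1 or 3. That call was also lost with the length trend removed, at -0.08 (adjusted p = 0.554 in edgeR's test). Of the genes for the factors themselves, Yy1 rose in BPK25 at day 4 from 159 to 236 CPM (log2 fold change 0.57, adjusted p = 1.54e-14 in edgeR's test) and Nrf1 fell from 60.1 to 50.2 CPM (-0.26, adjusted p = 0.000223). Pprc1, a coactivator of the PGC-1 family, rose from 78.3 to 119 CPM (0.61, adjusted p = 1.54e-14 in edgeR's test). Yy1, Nrf1 and Pprc1 were singled out of a list planned for counts and median only, and Gabpa is not given. In all, BPK25 at day 4 had 8 of the 14 tested regulators higher and 2 lower (71.4% called), where 53% of all genes were called. In IAA at day 4, 5 were higher and 2 lower, and that share, 50%, was near the 51.9% of all genes.

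Complex I, core subunits. Ndufs8 carries iron-sulfur clusters in the peripheral arm. Its levels were 114, 121 and 147 CPM in the DMSO day 0 libraries against 75.6, 82.0 and 69.0 in IAA, and 96.0, 94.8 and 100 CPM in DMSO day 4 against 49.0, 42.7 and 48.2 in IAA. No IAA library overlapped the controls of its day at any of the 4 days. The log2 fold changes were -0.75, -0.98, -1.05 and -0.52 at days 0, 2, 4 and 6, the first with an adjusted p of 3.62e-11 and the last with one of 2.16e-07 in edgeR's test. In BPK25 Ndufs8 fell at day 2 (-0.57) and day 4 (-0.28), and was at -0.13 and -0.10 at days 0 and 6.

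Ndufv2, an electron-input subunit of the NADH-binding module, was also lower in IAA throughout. It was at 230, 222 and 230 CPM in DMSO day 0 and 136, 133 and 139 in IAA, a log2 fold change of -0.74 ± 0.06 (approximate SE), and it was at -0.57, -0.68 and -0.26 at the later days. In BPK25 at day 4 its libraries were at 153, 158 and 154 CPM against 243, 240 and 231 in DMSO. The groups did not overlap, and the change was -0.62 ± 0.05 (adjusted p = 5.5e-14 in edgeR's test). At day 6 in BPK25 it was back at 196, 192 and 220 CPM against 197, 159 and 200, with overlapping groups. Ndufv1, its flavin-bearing partner, was at 0.05, -0.07 and -0.11 at days 2, 4 and 6 of IAA, with adjusted p of 0.375, 0.275 and 0.0563 in edgeR's test.

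Ndufs1, the largest iron-sulfur subunit, fell by smaller amounts at each day in IAA, by 0.21, 0.17, 0.29 and 0.23 log2 units, and by 0.37 in BPK25 at day 4. Its day 4 libraries were at 170, 171 and 165 CPM in DMSO, 134, 129 and 130 in BPK25 and 138, 137 and 139 in IAA. Neither treated group overlapped DMSO.

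Complex I, accessory subunits. Ndufb10, a membrane-arm subunit, moved in opposite directions at day 4 and day 6 of BPK25. It was at 203, 194 and 187 CPM in DMSO day 4 and 127, 113 and 130 in BPK25 (-0.65 ± 0.05), then at 156, 156 and 159 CPM in DMSO day 6 and 187, 184 and 182 in BPK25 (0.23 ± 0.05). Neither pair overlapped, and the adjusted p were 7.25e-15 and 0.00256 in edgeR's test. Its BPK25 effect differed between days with an adjusted p of 5.14e-13.

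Ndufb7, a small intermembrane-space subunit, changed direction with day in IAA. It was at 93.2, 94.2 and 71.9 CPM in DMSO day 2 and 128, 120 and 116 in IAA, and at 118, 120 and 123 CPM in DMSO day 6 and 85.7, 79.6 and 71.3 in IAA. The groups were separate at both days, with log2 fold changes of 0.50 and -0.60 (adjusted p = 1.92e-08 and 1.03e-10). Ndufs5 likewise was higher at day 2 of IAA (0.41) and lower at day 4 (-0.36), where BPK25 was also lower (-0.36).

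Few complex I members rose. Ndufv3, an accessory subunit of the NADH-binding module, rose in IAA at day 0, from 48.8, 43.8 and 43.5 CPM to 57.2, 59.3 and 60.8 (0.38, adjusted p = 1.7e-05 in edgeR's test), and at the later IAA days its values were 0.01, -0.09 and -0.12. Ndufa1, a membrane-anchored subunit needed for assembly, was at 30.5, 30.3 and 29.7 CPM in DMSO day 4 and 32.7, 38.3 and 38.5 in BPK25, without overlap (0.26, adjusted p = 0.00522). The other member higher in BPK25 at day 4, Ndufb1-ps, was at 0.38 and lost its call without BPK25 replicate 2, at 0.29.

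Complex II. Sdha and Sdhb, the flavoprotein and iron-sulfur subunits that oxidise succinate, fell at day 4 in both treatments. Sdhb was at 180, 170 and 176 CPM in DMSO, 142, 148 and 158 in BPK25 and 120, 125 and 121 in IAA, with all IAA libraries below all BPK25 libraries and those below DMSO. The log2 fold changes were -0.24 and -0.52. Sdha changed by -0.22 and -0.26.

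Sdhd, a membrane anchor of the same complex, went the other way in IAA. It was at 60.2, 57.1 and 58.3 CPM in DMSO day 4, 66.2, 72.5 and 71.2 in IAA and 51.1, 48.5 and 44.8 in BPK25, 3 ranges that did not overlap. Its log2 fold changes were 0.26 in IAA and -0.28 in BPK25 (adjusted p = 0.000312 and 0.00023 in edgeR's test), and at day 6 of IAA it was 0.35. The other anchor gene, Sdhc, was not called in any comparison, with day 4 values of 0.10 in IAA and -0.03 in BPK25. Among the assembly genes, Sdhaf1, Sdhaf2 and Sdhaf4 were lower in BPK25 at day 4 by 0.57, 0.29 and 0.44 log2 units, named after their values were seen, and none of the 4 was called in IAA.

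Complex III. All 8 members were lower in IAA at day 4 and 7 of 8 in BPK25, with the calls of the small subunits Uqcr10 and Uqcr11 dependent on single libraries. Uqcrc1, a core subunit of the matrix side, was at 162, 137 and 156 CPM in DMSO day 4, 134, 122 and 130 in BPK25 and 121, 124 and 124 in IAA. The treated libraries lay below the controls, by -0.23 in BPK25 and -0.30 in IAA. Uqcrfs1, the Rieske iron-sulfur protein, fell by 0.32 and 0.30.

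Uqcrc2, the partner of Uqcrc1, was the exception in BPK25 at day 4, at -0.08 (adjusted p = 0.161 in edgeR's test). Its largest IAA difference was at day 0, with 111, 120 and 114 CPM in DMSO and 80.6, 82.5 and 81.5 in IAA, separate groups with a log2 fold change of -0.50. Uqcrc1 at that day was at 0.08 (adjusted p = 0.228). Uqcr11, a small subunit, was higher in DMSO at day 6 (89.9, 92.4 and 89.1 CPM) than at day 0 (64.8, 74.6 and 77.8), and was lower at day 6 in both treatments, at 65.2, 62.2 and 63.2 in BPK25 and 58.7, 50.8 and 52.4 in IAA. The changes at day 6 were -0.51 and -0.74. Its lower call in IAA at day 4 (-0.19) was lost without DMSO replicate 1, IAA replicate 1 or IAA replicate 3, at -0.12, -0.17 and -0.14, and the value was 0.007 once the trend of counts with transcript length was removed. Uqcr10 at that day (-0.20) lost its call without DMSO replicate 1 (-0.14) or IAA replicate 1 (-0.15) and was at 0.001 without the length trend. In BPK25 at day 4 Uqcr10 (-0.22) lost its call without BPK25 replicate 2 or DMSO replicate 1, at -0.17 in both.

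Complex IV, common subunits. Cox4i1, the general isoform of the largest nuclear subunit, rose in IAA at days 0, 2 and 4. It was at 576, 597 and 593 CPM in DMSO day 0 and 819, 807 and 894 in IAA, and at 600, 558 and 483 CPM in DMSO day 2 and 976, 936 and 880 in IAA. No library overlapped on either day, and the log2 fold changes were 0.51 and 0.77 (adjusted p = 2.5e-09 and 5.42e-15 in edgeR's test). At day 4 it was at 0.27 and at day 6 at 0.09, the last with overlapping groups and an adjusted p of 0.213. The mean of Cox4i1 at day 0 went from 589 to 840 CPM, and the complex IV sum from 2041 ± 25.2 to 2284 ± 41.5 CPM (SD, n = 3). A gene model that overlaps Cox4i1 on the same strand, Gm20388, could share its reads.

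Cox7c and Cox8a, small subunits of the same enzyme, went down at day 4. Cox7c was at 302, 257 and 273 CPM in DMSO day 4, 182, 194 and 173 in BPK25 and 157, 162 and 162 in IAA. Cox8a was at 64.6, 56.2 and 58.2 CPM in DMSO, 34.8, 37.6 and 38.5 in BPK25 and 35.8, 36.8 and 34.9 in IAA. In both genes every treated library lay below every control, with log2 fold changes of -0.60 and -0.79 for Cox7c and -0.70 and -0.74 for Cox8a. Neither was called in IAA at day 6 (adjusted p = 0.875 and 0.996 in edgeR's test), where DMSO itself had come down to 159, 148 and 156 CPM for Cox7c and 42.2, 38.5 and 40.9 for Cox8a. Cox6c and Cox6b1 also fell at day 4 in both treatments, by 0.59 and 0.36 in BPK25 and 0.60 and 0.39 in IAA.

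Cox7a2l, known as a factor that joins complexes III and IV into supercomplexes, rose in BPK25 at day 4 from 64.5, 64.7 and 63.2 to 70.2, 78.0 and 79.6 CPM (0.24, adjusted p = 0.000165 in edgeR's test). In IAA it was higher at day 0 (0.36) and day 6 (0.28). Its calls at day 2 (0.17) and day 4 (-0.14) of IAA were lost without single libraries: at day 2 without DMSO replicate 2 (0.12) or IAA replicate 3 (0.11), and at day 4 without replicate 1 or 2 of DMSO or replicate 2 or 3 of IAA (-0.14 to -0.12).

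Complex IV, tissue isoforms. These genes were rare, and several made the largest fold changes of all members. Cox4i2, the isoform linked to lung and hypoxia, was the only member called higher in IAA at all 4 days. It was at 0.682, 0 and 0.466 CPM in DMSO day 0 and 3.82, 2.12 and 3.49 in IAA, from 8 and 78 counts over the 3 libraries, and at 0.962, 0.858 and 0.588 CPM in DMSO day 4 and 1.59, 1.94 and 2.37 in IAA. The groups were separate, with log2 fold changes of 3.02, 2.78, 1.249 and 1.37. In BPK25 it was higher at day 4 (1.33, adjusted p = 0.00251), from 23 counts in DMSO to 64.

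Ndufa4l2, a hypoxia-linked relative of Ndufa4, was called in 2 of the 8 treatment comparisons. In BPK25 at day 4 it was at 2.90, 3.42 and 3.88 CPM against 0.192, 0.572 and 0.294 in DMSO, from 103 and 10 counts, and in IAA at day 0 at 3.38, 5.12 and 3.49 CPM against 0.682, 1.05 and 0.155, from 101 and 14 counts. Both pairs were separate, with log2 fold changes of 3.18 ± 0.40 and 2.60 ± 0.37. It overlaps Shmt2 on the opposite strand, and whether counting used strand is not stated, so reads of the 2 genes cannot be told apart. Cox6a2, the heart and muscle isoform, was at 1.99, 1.58 and 1.66 CPM in BPK25 day 4 against 0.385, 0.286 and 0.588 in DMSO, from 54 and 11 counts (2.12 ± 0.41).

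Cox6b2, the testis isoform, and Cox7a1, the muscle isoform, changed direction with day. Cox6b2 was at 16.8, 19.8 and 17.4 CPM in DMSO day 2 and 6.48, 3.85 and 6.08 in IAA, and at 6.377, 5.349 and 5.798 CPM in DMSO day 6 and 10.18, 12.4 and 12.02 in IAA. The groups did not overlap, at -1.73 and 0.95 log2 units. Cox7a1 rose in IAA at day 0 (0.51) and was lower at day 4, at 2.81, 2.04 and 3.40 CPM against 6.35, 7.53 and 6.61 in DMSO (-1.30 ± 0.18).

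**Figure D4:**
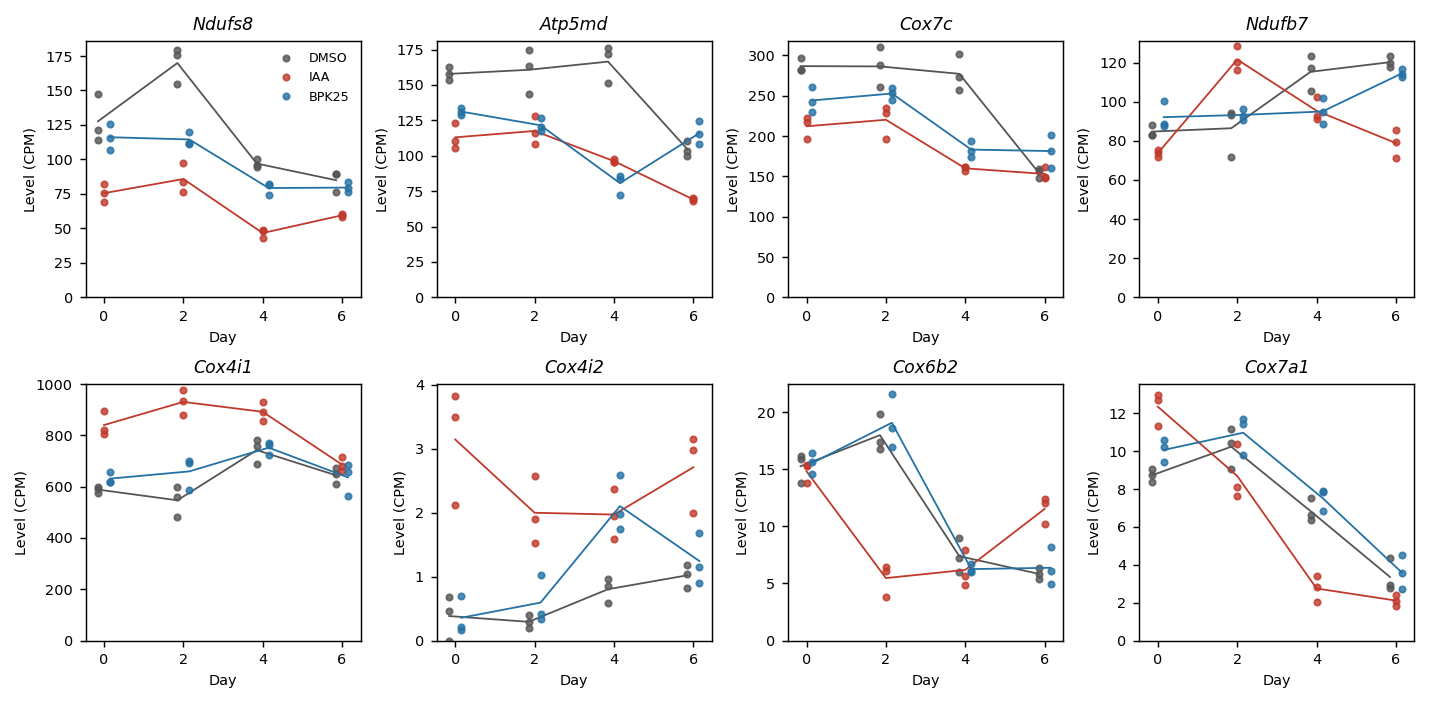
CPM (vertical axes, linear) of 8 members in each library by day (horizontal axis) for DMSO, BPK25 and IAA; points are libraries and lines join means of 3. Ndufs8 in IAA lies below DMSO at each day, and Cox4i1 in IAA lies above DMSO at days 0, 2 and 4.

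Complex V, catalytic head. Atp5a1 and Atp5b encode the alpha and beta subunits that make ATP. Atp5b was at 1597, 1448 and 1477 CPM in DMSO day 4, 1072, 1083 and 1128 in BPK25 and 1087, 1150 and 1126 in IAA. Every treated library lay below every control, with log2 fold changes of -0.46 ± 0.05 and -0.43 ± 0.05 (adjusted p = 1.32e-11 and 1.15e-10 in edgeR's test). Atp5a1 fell by 0.28 and 0.30. At day 6 Atp5b in BPK25 was at 1117, 1190 and 1096 CPM, above the 1076, 1037 and 1061 of DMSO (0.10, adjusted p = 0.228).

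Complex V, membrane part. Atp5md, known as DAPIT, and Atp5l, subunit g, belong to the part that holds synthase dimers. Atp5md made the largest decrease of any member in BPK25 at day 4, from 176, 151 and 172 CPM to 83.8, 72.6 and 85.6 (-1.03 ± 0.06, adjusted p = 5.01e-19 in edgeR's test). It was also lower in BPK25 at day 0 (-0.27) and day 2 (-0.40), and at day 6 was at 125, 115 and 108 CPM against 110, 99.9 and 103, with overlapping groups. In IAA it fell at all 4 days, by 0.49, 0.45, 0.79 and 0.60. Atp5l changed by -0.77 in BPK25 and -0.61 in IAA at day 4.

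Atp5k, subunit e of the same membrane part, fell in IAA at each day, with its largest change at day 6: 64.8, 64.9 and 64.1 CPM against 110, 116 and 116 in DMSO, a separate pair of groups at -0.82 ± 0.05. Atp5e, the epsilon subunit of the stalk, had its largest change at day 4 of IAA, 24.3, 26.1 and 25.1 CPM against 43.3, 43.0 and 44.4 (-0.79 ± 0.06). Atp5g1, Atp5g2 and Atp5g3 encode the same c-ring protein. All 3 were lower in BPK25 at day 4, by 0.51, 0.33 and 0.24, and in IAA they were at -0.20, -0.25 and -0.19, of which Atp5g1 did not pass (adjusted p = 0.0538). The calls of Atp5g2 and Atp5g3 there were each lost without DMSO replicate 1 or IAA replicate 1, Atp5g2 also without DMSO replicate 2, and Atp5g3 also without DMSO or IAA replicate 3. Both were lost once the length trend was removed, at -0.08 and -0.06. Atp5mpl, a small proteolipid subunit, was among the few complex V members higher in IAA, at days 0, 2 and 6 (0.31, 0.38 and 0.42).

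Over all 4 IAA comparisons, 18 members, both Atp5o models among them, were lower at every day, and 1, Cox4i2, was higher at every day. How many of all genes did so was not counted, and between 44.5% and 60.6% of them were called at each day. Of the 18, Ndufs1, Ndufs8, Ndufv2, Uqcrc2, Atp5e, Atp5k and Atp5md kept each of their 4 calls when any 1 library was left out. Ndufs3 and Uqcr11 at day 4, Ndufb10 and Sdhb at day 6, Sdha at days 0 and 2 and Atp5b at day 0 did not. Another 11 were called in both directions at different days, some through calls that single libraries decided. This pattern too was not counted over all genes. Cox7a2 at day 0 was the only day of that gene called higher, and of the 6 sets with 1 library left out it passed only in that without IAA replicate 2 (0.18 to 0.22 in the others). Ndufa4 and Ndufa2 at day 2, the only days of these genes called higher, did not pass without DMSO replicate 2 (0.18 and 0.17). Ndufa4 at day 4, its only lower call at -0.17, passed without DMSO replicate 2 only (-0.09 to -0.19 without each other library). Cox7a2l at day 4, its only lower call, did not pass without DMSO replicate 1 or 2 or IAA replicate 2 or 3 (-0.12 to -0.14).

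In BPK25, 13 members were called in both directions, again in part through calls that single libraries decided. The share of all genes called in both directions was not counted. Atp5k was higher at day 0 alone, at 0.17, and did not pass with any 1 of the 6 libraries left out (0.16 to 0.19). Cox7c was higher at day 6 alone, at 0.22, and of the 6 sets with 1 library left out it passed only in that without BPK25 replicate 3 (0.14 to 0.25 in the others). Uqcr11 at day 0, at 0.25, did not pass without BPK25 replicate 1 (0.21) or DMSO replicate 1 (0.18). Ndufa2 at day 0, at 0.24, did not pass without BPK25 replicate 1 or 3 or DMSO replicate 1 or 3 (0.18 to 0.23), and at day 6, at -0.22, it passed without DMSO replicate 2 only (-0.16 to -0.23 without each other library). Ndufa1 at day 0, at 0.32, did not pass without BPK25 replicate 1 or DMSO replicate 2 or 3 (0.26 to 0.28). Ndufs5 at day 6, at 0.34, did not pass without BPK25 replicate 1 (0.26) or DMSO replicate 1 (0.29), and Uqcr10 at day 4, its lower call at -0.22, did not pass without BPK25 replicate 2 or DMSO replicate 1 (-0.17 in both). With the length trend removed, the day 0 values of Atp5k, Ndufa1, Ndufa2 and Uqcr11 were 0.11, 0.24, 0.17 and 0.18 and did not pass. Ndufa13, Uqcrq, Cox5b and Atp5h, also among the 13, were not tested singly with libraries left out.

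Member levels in the DMSO controls also differed between days. In DMSO at day 6 against day 0, 53 members were lower and 14 higher (62.7% of all genes called, 29.5% lower and 33.2% higher), with a median of -0.27 log2 units against 0.03 over all genes and -0.13 over the tested genes under 1000 bases. At day 4, 29 were lower and 12 higher (50.3% called, 24.4% lower and 26% higher), and at day 2, 9 were higher and 1 lower (5.44% called, 1.59% higher and 3.85% lower). The count of higher members at day 4 was 7 without DMSO day 0 replicate 1. The single lower call at day 2, Ndufv1, was lost without DMSO day 0 replicate 2 or 3 or any 1 of the 3 day 2 libraries. All 3 comparisons share the DMSO day 0 libraries. Atp5b went from 1738, 1783 and 1714 CPM at day 0 to 1076, 1037 and 1061 at day 6 (-0.72 ± 0.05), and Cox7c from 282, 281 and 297 to 159, 148 and 156 (-0.89 ± 0.07), without overlap. Ndufa1 rose over the same span from 26.6, 23.1 and 22.8 to 45.5, 39.5 and 46.7 CPM (0.86 ± 0.08), as did Cox7b2, a testis isoform, from 1.77, 1.71 and 2.02 to 3.48, 5.05 and 4.05 CPM (1.16 ± 0.26). The 8 members higher at both day 4 and day 6, a pattern not counted over all genes, were Ndufa1, Ndufa3, Ndufa13, Ndufb7, Uqcrh, Cox7a2l, Cox7b2 and Atp5f1. Without DMSO day 0 replicate 1 the day 4 values of Cox7a2l and Atp5f1, 0.13 and 0.10, did not pass, and Ndufa3 at day 4 did not pass without DMSO day 0 replicate 3 (0.26) or day 4 replicate 2 (0.31). Cox7a2l at day 6 did not pass without DMSO day 0 replicate 1 (0.11) or day 6 replicate 1 (0.10) or 3 (0.13).

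At day 4 of both treatments the 13 subunits encoded by mitochondrial DNA moved in the opposite direction to most nuclear members. In BPK25 at day 4, 11 of 13 were higher and none lower, with a median of 0.46 log2 units, where 26.2% of all genes were higher. In IAA at days 0, 2, 4 and 6, 11, 10, 12 and 6 were higher and 1, 0, 0 and 2 lower. Of all genes 21.3%, 27.5%, 25.9% and 30.6% were higher at those days. The share of the 13 called at day 6 of IAA, 61.5%, was near the 60.6% of all genes. Their summed level was 13210 ± 482 CPM in DMSO day 4, 18351 ± 987 in BPK25 and 23676 ± 291 in IAA, and none of the treated libraries overlapped DMSO. mt-Co1, the catalytic core of complex IV, went from a mean of 3096 CPM in DMSO day 4 to 4565 in BPK25 and 5742 in IAA. mt-Cytb of complex III went from 3532 to 4818 and 7059 CPM. At day 0 and day 2 of BPK25, 4 and 3 of the 13 were lower and none higher, where 4.58% and 7.12% of all genes were lower. At day 6 of BPK25, 6 of the 13 were higher and 0 lower (46.2% called, against 7.09% of all genes). The median of the nuclear members there was -0.02. In DMSO at day 6, 10 of 13 were higher than at day 0, where 33.2% of all genes were higher.

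Other gene groups were counted at day 4, where 26.8% of all genes were lower in BPK25 and 25.9% in IAA. Of 78 mitochondrial ribosomal protein genes, 43 were lower and 5 higher in BPK25 at day 4, with a median of -0.21, and 47 were lower and 3 higher in IAA, with a median of -0.20. Of 78 cytosolic ribosomal protein genes, 46 were lower and 7 higher in BPK25 at day 4 with a median of -0.14, and 74 were lower and none higher in IAA with a median of -0.51. Of 47 assembly factors of the chain, 20 were lower and 7 higher in BPK25 at day 4, with a median of -0.14, and 15 were lower and 5 higher in IAA, with a median of -0.07. The share of assembly factors called was 57.4% in BPK25 and 42.6% in IAA, against 53% and 51.9% of all genes. In BPK25 at day 0 the cytosolic ribosomal group had 35 higher and 1 lower with a median of 0.13, where the respiratory members had 8 and 6. Of all genes 3.32% were higher and 4.58% lower there. The 2761 tested genes under 1000 bases had 204 higher and 61 lower, with a median of 0.06. The part of transcript length in that count was not tested.

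Across the 36 libraries, most members moved alike. The correlation of a member's log2 CPM with the median of the other members had a median of 0.716, was over 0.5 for 63 of 89 and was negative for 13. Libraries share groups and scaling, so these values describe the data only. Atp5o (0.932), Uqcrc1 (0.931) and Sdhb (0.922) were among those most like the rest. The least like were Cox7b2 (-0.817), Cox4i2 (-0.601), Ndufa1 (-0.535), Sdhd (-0.523) and Cox7a2l (-0.507), and the abundant Cox4i1 was at -0.337. By complex the median was 0.803 for III, 0.78 for V, 0.707 for I, 0.681 for IV and 0.516 for the 4 genes of II.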

How the data were processed

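The deposited table holds raw counts per gene for 36 libraries. Per the submitters' processing notes, the authors used FastQC 0.11.7, HISAT2 2.1.0 and featureCounts 2.0.1 with mm10, and list DESeq2. No strand setting, annotation or filter is stated (not given in the sources used here). Libraries were grouped by the treatment and day in the labels.

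The counts were fitted in edgeR 4.0.16 (R 4.3.3, limma 3.58.1) with 1 term for each of the 12 groups, TMM scaling, filterByExpr (minimum count 10, minimum total 15) and the quasi-likelihood F test. The common biological coefficient of variation was 3.86%. Each treatment was compared with DMSO of the same day, DMSO days 2, 4 and 6 with day 0, and the effect of each treatment between days was tested jointly. p-values were adjusted by Benjamini-Hochberg over 17394 genes. Fold changes are log2, and approximate standard errors (SE) are the fold change divided by the square root of F. Simulated counts for BPK25 against DMSO at day 4 over 17394 genes recovered 48% of genes changed 1.25-fold, 86% changed 1.5-fold and 100% changed 2-fold or 4-fold. False calls numbered 8 (4.57% of calls). Only 50 genes were changed at each fold, all above 5 CPM on average, and every gene had the common variation. In the real comparison 53% of genes were called, so these rates do not carry over to it.

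The members and the gene lists were chosen with earlier results of these data known. Named members were, in each comparison, the 3 highest and 3 lowest called log2 fold changes among members that reached a mean of 5 CPM in a group and had no overlap between libraries, the 5 with the smallest p in each joint test, a fixed set of core subunits, and the genes that come in alternative forms. The values of 1 member are not reported here, though it stays in the counts and sums. Sdhc, the Sdhaf genes and a few others were named after their values were seen. Lists for embryonic stem cells, fibroblast feeders, muscle and visceral endoderm were also counted. In DMSO at day 6, 8 of 9 visceral endoderm markers were higher than at day 0, where 33.2% of all genes were higher. In IAA day 4, 6 of 9 were higher and 1 lower, and BPK25 day 4 had 4 higher and 4 lower. Of all genes, 25.9% were called in each direction in IAA day 4. In BPK25 day 4, 26.2% of all genes were higher and 26.8% lower. BPK25 at day 4 had 3 of 5 tested muscle markers higher and 2 lower. Of 11 tested fibroblast markers, 5 were lower and 1 higher in BPK25 day 4 and 7 higher and 2 lower in IAA day 4. The share of fibroblast markers called in BPK25 day 4, 54.5%, was near the 53% of all genes. Transcript lengths came from GENCODE M21, which held 98.6% of the gene IDs. No 2 libraries of a group agreed within sampling noise. DESeq2 1.42.0, size factors by relative log expression, no filter, the compared libraries alone, a removed length trend, a replicate block and leaving out each library were tried as alternatives.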

Additional observations from a re-analysis of the deposited data

Results flagged for a closer look

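The effect of a treatment on a member differed between days, by a joint test of treatment and day in edgeR with Benjamini-Hochberg adjustment over all genes, for 72 members in IAA and 68 in BPK25. Among these, members called in opposite directions at different days of IAA were Cox6b2 (adjusted p = 1.36e-13), Ndufb7 (7.74e-13), Cox7a1 (2.65e-08), Ndufa2 (6.8e-07), Cox7a2l (8.19e-07), Ndufs5 (3.93e-06), Ndufa7 (2.2e-05), Ndufs6 (4.67e-05), Ndufa8 (7.81e-05), Ndufa4 (0.00137) and Cox7a2 (0.00196). The joint test asks whether the 4 differences are equal, and does not test their opposite sign. Some of these directions rest on calls that single libraries decided: the day 0 call of Cox7a2, the day 2 calls of Ndufa2 and Ndufa4 and the day 4 calls of Ndufa4 and Cox7a2l did not pass in edgeR's test with at least 1 single library left out. Atp5f1 (1.46e-10), Cox7c (1.24e-08) and Cox8a (1.28e-08) also had small p for a difference between days of IAA, and were called in 1 direction only.

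In BPK25, the members called in opposite directions at different days were Ndufb10 (adjusted p = 5.14e-13 in edgeR), Atp5e (3.54e-09), Uqcr11 (4.33e-09), Cox7c (4.6e-09), Ndufa2 (8.84e-09), Ndufa13 (1.21e-07), Cox5b (6.6e-07), Atp5k (1e-06), Uqcrq (5.08e-06), Ndufs5 (1.05e-05), Ndufa1 (1.3e-05), Atp5h (6.36e-05) and Uqcr10 (0.000179). The higher call of Atp5k at day 0 did not pass with any 1 of the 6 libraries left out, and that of Cox7c at day 6 passed only in the set without BPK25 replicate 3. The day 0 calls of Uqcr11, Ndufa1 and Ndufa2, the day 6 call of Ndufs5 and the day 4 call of Uqcr10 also failed with at least 1 single library left out. Atp5md (2.83e-14), Ndufv2 (1.21e-10) and Atp5l (1.47e-09) had their lowest value of the 4 days at day 4.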

How the results depend on the processing

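Depth limits the rare isoforms: Cox4i2, Cox6a2 and Ndufa4l2 rest on at most 78, 54 and 103 counts in a group. Of 309 called values of named members, 13 did not pass with DESeq2, 2 with size factors by relative log expression and 15 with no filter. Of the same 309, 6 did not pass with the compared libraries alone, 4 with the replicate block, 32 with the length trend removed and 37 with both. With DESeq2 294 passed and with the compared libraries alone 300, and the few other values had no adjusted p in those fits. Each value was also refitted once for every library of its groups left out. Over all these refits 1649 values passed and 205 did not. All values that did not pass kept the direction of the full data. Beside them, 3 values turned sign with the length trend removed and 2 with the replicate block as well. The cause was not tested. Removing the length trend turned Uqcr11 (0.007), Uqcr10 (0.001) and Ndufa4 (0.025) positive in IAA at day 4, and with the replicate block as well Uqcr11 was at 0.006 and Ndufa4 at 0.029.

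With the length trend removed, 3 members were higher in BPK25 at day 0 and 16 lower in BPK25 at day 2, and the same with the replicate block, where IAA had 7 higher at day 4 and 14 at day 6. The single lower member of DMSO day 2 became 0 with no filter and 0 with the compared libraries alone. The summed level of all members with the length trend removed was 10254 CPM in BPK25 day 0, 10575 in DMSO day 0, 10406 in BPK25 day 2, 10822 in DMSO day 2, 8485.6 in BPK25 day 4, 8851.3 in IAA day 4, 8930.2 in BPK25 day 6, 8924.8 in DMSO day 6 and 8511.1 in IAA day 6. Complex I was at 2651.4 in DMSO day 0, 2354.8 in IAA day 0, 2184.8 in BPK25 day 4, 2565.9 in DMSO day 4 and 2108.3 in IAA day 4, complex III at 922.63 in DMSO day 4 and 801.25 in IAA day 4, complex IV at 1967.7 in DMSO day 0, 2240.8 in IAA day 0, 1925.3 in BPK25 day 4 and 2136.6 in IAA day 4, and complex V at 3152.3 in BPK25 day 4 and 3336.8 in IAA day 4. With size factors by relative log expression, all members summed to 10866 CPM in DMSO day 0, complex I to 2402.2 in IAA day 0 and complex III to 741.24 in IAA day 4.

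With 1 library left out, higher and lower counts ranged over 2 to 6 and 3 to 4 in BPK25 day 0, 7 to 12 and 5 to 9 at day 2, 5 to 6 and 57 to 60 at day 4, and 1 to 4 and 8 to 14 at day 6. In IAA they ranged over 9 to 11 and 21 to 25 at day 0, 7 to 11 and 41 to 46 at day 2, 4 to 4 and 55 to 64 at day 4, and 8 to 11 and 38 to 44 at day 6, and in DMSO over 6 to 11 and 0 to 1 at day 2, 7 to 11 and 25 to 29 at day 4, and 11 to 12 and 51 to 55 at day 6. Same-numbered libraries did not deviate together (correlations from -0.028 to 0.026), so the numbers pair nothing. The replicate block left 60 lower in BPK25 and 66 in IAA at day 4, and gave 25 lower in IAA day 0, 7 higher in BPK25 day 0, 4 higher and 11 lower in BPK25 day 6, 13 higher in DMSO day 6 and 69 members whose BPK25 effect differed between days.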
